A study of Homo sapiens with 6 samples.

Results

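The genes described here build and finish the sugar chains of glycoproteins and make the glycosylphosphatidylinositol (GPI) anchor, a glycolipid that holds some proteins on the cell surface. They are the protein-coding rows of the deposited count table whose symbols belong to the ALG, PIG, PGAP, B3GALT, B4GALT, MGAT, GALNT, ST3GAL, ST6GAL, ST6GALNAC or FUT series, plus GPAA1. The symbols alone picked 105 genes of the 58735 in the table, of which 19951 are protein-coding, and no measured value was used. One of them, PIGR, is the polymeric immunoglobulin receptor and no GPI enzyme.

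RNA-seq counts came from 6 libraries of RPE-1, a human retinal pigment epithelial cell line. This version of the line carries GFP-tagged CETN2, a centriole protein, and a PLK4 gene made doxycycline-inducible by an rtTA system. In 3 libraries the cells had received an siRNA against SON, a nuclear speckle protein needed for pre-mRNA splicing (siSON), and in 3 a scramble siRNA (siControl). PLK4, the kinase that starts centriole assembly, was induced with 1 µg/mL doxycycline in both groups, so the comparison is between cells that all make extra PLK4. No source used here says whether the 3 libraries of a group came from separate cultures, so the p-values measure the spread between these libraries, which may be technical.

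N-glycans are assembled on the lipid dolichol in the endoplasmic reticulum, moved as a block onto asparagine by the oligosaccharyltransferase, then trimmed and rebuilt in the Golgi with branches, galactose, sialic acid and fucose. Mucin-type O-glycans start in the Golgi, where a GALNT enzyme puts N-acetylgalactosamine on serine or threonine. The GPI anchor is built on phosphatidylinositol in the endoplasmic reticulum, joined to the protein by a transamidase and remodelled afterwards by PGAP proteins.

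Library totals ran from 54572365 to 69764836 counts, and 3 counts corresponded to 0.0402 to 0.059 CPM (counts relative to the scaled library size), a limit that covers counting error only. SON itself had 295, 313 and 284 CPM in the siControl libraries and 68, 70 and 65 CPM in the siSON libraries, so 22.8% of the control level was left (log2 fold change -2.14, SE 0.057, edgeR adjusted p 6.78e-10; 2-sided exact permutation p 0.1, the smallest that 3 against 3 can give). Of 11 pigment epithelium markers, OTX2, MITF and BEST1 rose, with log2 fold changes of 0.82, 0.52 and 0.62. Over all 6 libraries OTX2 ranged from 19.7 to 37 CPM, MITF from 21.4 to 32 CPM and BEST1 from 7.71 to 14.8 CPM. From the siControl mean to the siSON mean, PMEL (2.06 to 0.2 CPM), LRAT (0.433 to 0.0692 CPM) and SERPINF1 (0.877 to 0.36 CPM) fell. RPE65 did not exceed 0.258 CPM, RLBP1 and TYRP1 did not exceed 0.1 CPM, and TYR and TTR were at 0 in every library. KRT8, KRT18 and VIM were counted at 208 CPM or more in every library, whereas CD3E and HBB of blood cells were at 0. Of the other blood and endothelial markers, PTPRC was at 1.12 to 1.98 CPM in siControl and 0.275 to 0.31 CPM in siSON (log2 fold change -2.29, adjusted p 4.40e-05), PECAM1 at 1.02 to 1.29 and 0.256 to 0.879 CPM (-1.11, adjusted p 0.019), and CD14 at 0.236 CPM or less. The part of other cells in the results was not tested.

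Of the 105 genes, 85 had enough counts to be tested and 61 of those were called changed, which is 71.8%, beside 71.7% of all 16591 genes tested. A gene is called here when its adjusted p in edgeR's quasi-likelihood test is under 0.05. The calls were 26 higher (30.6%, beside 35.2% of all genes) and 35 lower (41.2%, beside 36.5%) in siSON. Of the calls, 8 were at least 2-fold upward (9.41%, background 8.72%) and 18 downward (21.2%, background 20.5%). The groups did not overlap for 65 of the 85 genes (76.5%, background 75.1%). These shares were near those of all genes, which include non-coding ones. Of the 13008 tested protein-coding genes, 77.4% were called, 40.3% higher and 37.1% lower, so a smaller share of these enzymes was called higher. The groups did not overlap for 79.9% of them. The difference was not tested. The counts below, many of them small, describe which enzymes rose and which fell, and are to be read beside these shares. In bulk RNA, fewer cells of a kind and less RNA per cell cannot be told apart. The median log2 fold change of the 85 genes was -0.11, beside -0.027 for all genes tested and 0.028 for protein-coding ones. The split depended on scaling. With library size alone, which moved log2 fold changes by a median of -0.20, 21 were higher and 44 lower, and under cyclic loess normalization 31 were higher and 33 lower with a median of 0.03.

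**Figure D1:**
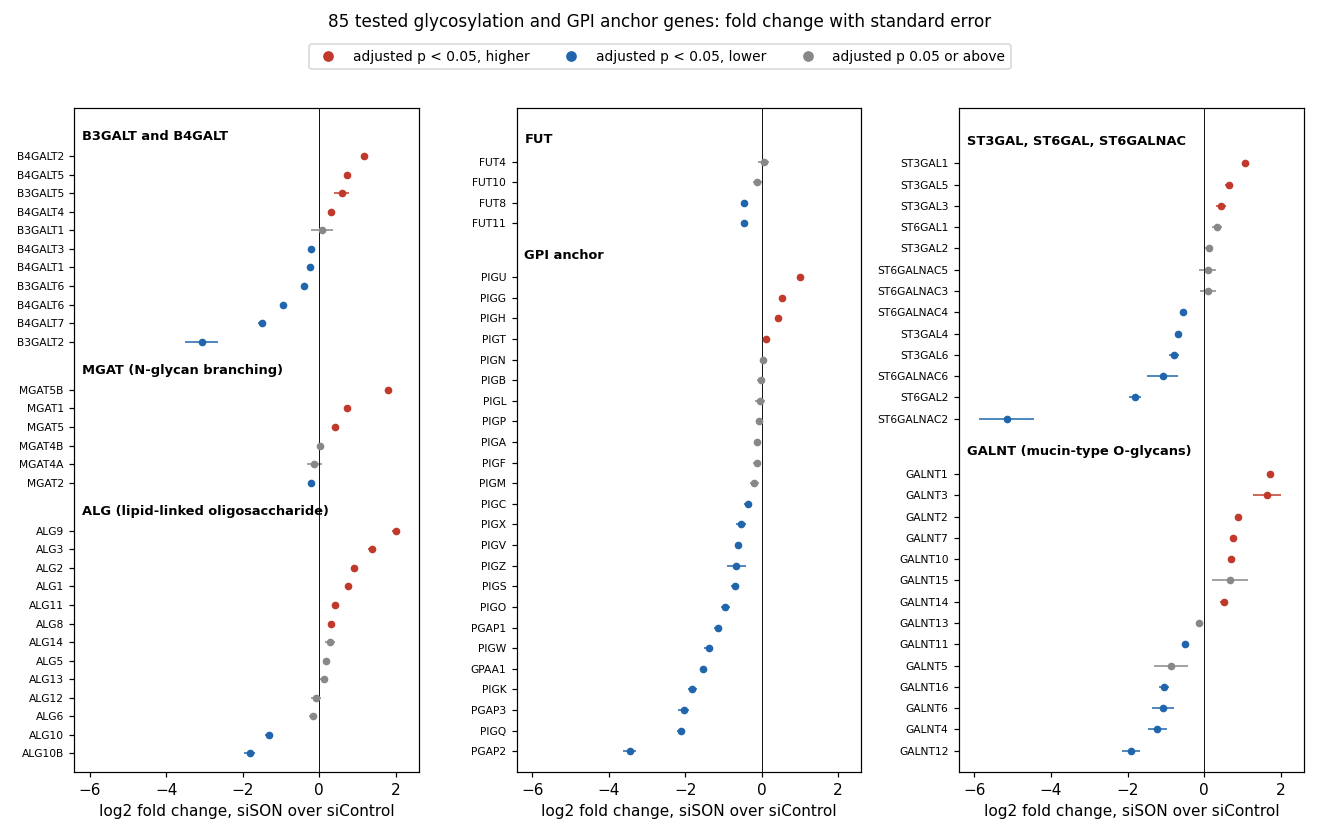
Log2 fold change (siSON over siControl, horizontal axis) of the 85 tested genes, grouped by family, with standard errors as bars and colour for the edgeR call. Every family holds members on both sides of 0, with ALG9 highest, 3.99-fold above control, and ST6GALNAC2 lowest.

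The dolichol-linked precursor of N-glycans is built by the ALG enzymes. Of 15 ALG genes 13 were tested, 6 rose (46.2%) and 2 fell (15.4%), with a median log2 fold change of 0.28 (5 rose and 3 fell with library size alone). Of all tested protein-coding genes 40.3% were called higher and 37.1% lower. All of the tested mannosyltransferases except ALG12 rose, and the pair that adds the last glucose fell. On the cytosolic side, 3 of 5 genes rose and none fell. Of the 3 lumenal mannosyltransferases ALG3, ALG9 and ALG12, the first pair rose, and of 5 genes of the glucose steps 1 rose and 2 fell.

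ALG9, a lumenal mannosyltransferase (ENSG00000086848; GRCh38 chromosome 11, 111782195 to 111871581, minus strand, 15 exons), was counted at 5.72, 5.19 and 6.14 CPM in siControl and 24.6, 22.4 and 21.2 CPM in siSON. The siSON libraries were all far above the control range, a 3.99-fold rise (SE 0.099 on the log2 scale, adjusted p 1.78e-08) that was the largest among the 85 genes. ALG9 lies inside a read-through gene, AP001781.2, that holds 92.2% of its 50-base words and is listed at 0 in all 6 libraries, so how reads of the shared part were assigned is not known and the ALG9 level is uncertain. ALG3, the enzyme that adds the first lumenal mannose (ENSG00000214160; chromosome 3, 184242301 to 184249548, minus strand, 9 exons), was counted at 32.2, 26.3 and 24.4 CPM in siControl and 77.9, 67.8 and 68.8 CPM in siSON. Its rise was 2.59-fold (log2 fold change 1.37, SE 0.10, adjusted p 3.94e-07), and ALG3 shares its span with VWA5B2 on the other strand.

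ALG2, a cytosolic mannosyltransferase, rose from 27.4 ± 1.37 to 51.1 ± 2.36 CPM (mean ± SD, n = 3 per group; log2 change 0.90, adjusted p 4.17e-07). ALG1, which adds the first mannose, and ALG11 rose by log2 fold changes of 0.76 and 0.42. For both a large part of the transcript is shared with other genes, 51.3% of the 50-base words for ALG1 and 61.5% for ALG11, whose partner UTP14C was itself higher (log2 fold change 0.75). ALG8, a glucosyltransferase, rose by 0.31 (adjusted p 0.00145), a call lost with library size alone (0.11, adjusted p 0.172).

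ALG10 and ALG10B are near copies that add the last glucose. ALG10 (ENSG00000139133; chromosome 12, 34022281 to 34029694, plus strand) had 8.53, 8.18 and 8.28 CPM in siControl and 3.05, 3.65 and 3.4 CPM in siSON. ALG10B (ENSG00000175548; chromosome 12, 38316578 to 38329728, plus strand) had 10.5, 11.8 and 8.53 CPM in siControl and 2.81, 3.18 and 2.7 CPM in siSON. Both fell with no overlap between groups, by 1.31 (SE 0.11, adjusted p 1.33e-06) and 1.82 (SE 0.14, adjusted p 5.53e-07) on the log2 scale. Of the ALG10 transcript 26.7% of the 50-base words also occur in ALG10B, and 8.29% of the longer ALG10B transcript in ALG10, so their falls are not fully separate measurements. ALG5, ALG6, ALG12, ALG13 and ALG14 were not called, with log2 fold changes of -0.17 to 0.28. These were not settled. ALG12 was called lower without siControl replicate 1 (-0.28, adjusted p 0.0127) and ALG6 with library size alone (-0.37, adjusted p 0.00657). ALG5 was called higher without siControl replicate 3 (0.28, adjusted p 0.0243) and under cyclic loess (0.29, adjusted p 0.0214), as was ALG14 under cyclic loess (0.58, adjusted p 0.00218).

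The genes that feed and use this precursor are given by lists of pathway members. Beside these lists, 40.3% of all tested protein-coding genes were called higher and 37.1% lower. Of 12 oligosaccharyltransferase genes, 8 rose (66.7%) and 2 fell (16.7%), with a median of 0.29. RPN1, a structural subunit, rose from 243 ± 4.93 to 415 ± 8.04 CPM (mean ± SD, n = 3 per group; log2 change 0.77, adjusted p 6.31e-08; 0.41 under cyclic loess), and DAD1 rose by 0.76 (adjusted p 2.45e-07). Of 11 genes of dolichol and precursor supply, 3 rose (27.3%) and 6 fell (54.5%), with a median of -0.22. DPAGT1, which starts the precursor by adding the first sugar to dolichol phosphate, fell from 26.1 ± 1.68 to 8.9 ± 1.11 CPM (log2 fold change -1.55, adjusted p 1.46e-07), and NUS1, a subunit of the enzyme that makes dolichol, fell by 0.69 on the log2 scale (adjusted p 2.12e-06). DPAGT1 acts just before ALG13 and ALG14, which were not called, and ALG1, which rose. Of 19 tested genes of glycan trimming and folding control, 9 rose and 9 fell (47.4% each), with a median of -0.049. PRKCSH, the glucosidase II beta subunit, was at -1.31 (adjusted p 3.37e-09) and MAN2A2, a Golgi mannosidase, at -1.50 (adjusted p 1.73e-08).

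In the Golgi the MGAT enzymes start the antennae of N-glycans. Of 9 genes 6 were tested, 3 rose and 1 fell (50% and 16.7%, beside 40.3% and 37.1% of tested protein-coding genes). With library size alone 3 rose and 2 fell, and under cyclic loess 2 rose and 2 fell. The median log2 fold change of 0.22 became 0.02 with library size alone. The genes that rose were MGAT5B, MGAT1 and MGAT5. MGAT5B, an enzyme best known from brain O-mannose glycans (ENSG00000167889; chromosome 17, 76868456 to 76950393, plus strand, 16 exons), was counted at 35.5, 36.7 and 33.3 CPM in siControl and 131, 116 and 117 CPM in siSON. This 3.45-fold rise (log2 fold change 1.79, SE 0.068, adjusted p 3.60e-09) had no overlap between groups. MGAT5, its paralog, which makes the branch recognised in many tumours, had 98.3, 109 and 114 CPM in siControl and 129, 143 and 158 CPM in siSON. The smaller rise of MGAT5 (log2 fold change 0.42, SE 0.081, adjusted p 0.000693) was lost under cyclic loess (0.15, adjusted p 0.106).

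MGAT1, which makes the first step of every complex N-glycan, rose from 134 ± 8.84 to 222 ± 5.07 CPM (mean ± SD, n = 3 per group; log2 change 0.72, adjusted p 6.52e-07; 0.42 under cyclic loess). MGAT2, which acts next on the other arm and is encoded by a single exon (chromosome 14, 49620795 to 49623481, plus strand), had 89.1, 97.4 and 95.2 CPM in siControl and 74.9, 84 and 84.8 CPM in siSON, a small fall (log2 fold change -0.21, SE 0.065, adjusted p 0.013). MGAT2 shares 90% of its 50-base words with AL139099.1 on the other strand, which stayed between 0.416 and 0.655 CPM. MGAT4B, the abundant enzyme of another branch, had 208, 205 and 209 CPM in siControl and 211, 203 and 218 CPM in siSON and was not called (log2 fold change 0.022, SE 0.048, adjusted p 0.695). Its sign turned with the scaling, to -0.18 with library size alone (adjusted p 0.00596) and -0.30 under cyclic loess (adjusted p 0.00012). Its paralog MGAT4A, at 1.59 to 2.4 CPM in all libraries, was not called either (-0.13, SE 0.19, adjusted p 0.547). Per kilobase of exon, MGAT4B and MGAT2 held the highest levels of the family in siControl, 37.8 and 35 CPM per kilobase, and MGAT5B moved from 5.51 to 19.

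Galactose is added by the B4GALT and B3GALT enzymes. Of 12 genes 11 were tested, 4 rose and 6 fell (36.4% and 54.5%, beside 40.3% and 37.1% of tested protein-coding genes). The median log2 fold change was -0.23, and with library size alone 2 rose and 6 fell. B4GALT2 (ENSG00000117411; chromosome 1, 43978943 to 43991170, plus strand, 7 exons) was counted at 64, 69.4 and 69.9 CPM in siControl and 157, 142 and 155 CPM in siSON, a 2.24-fold rise (SE 0.061 on the log2 scale, adjusted p 2.78e-08). B4GALT5, a lactosylceramide synthase of glycolipid synthesis, rose from 128 ± 11.2 to 210 ± 6.98 CPM (mean ± SD, n = 3 per group; log2 change 0.72, adjusted p 2.09e-06; 0.42 under cyclic loess). B4GALT6, the other lactosylceramide synthase, fell from 39.7 ± 0.825 to 20.6 ± 2.31 CPM (-0.95, SE 0.086, adjusted p 1.69e-06). The paralogs B4GALT5 and B4GALT6 were thus called in opposite directions, and B4GALT5 was at the higher level per kilobase in both groups (27.1 against 7.48 in siControl, 44.5 against 3.88 in siSON).

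B4GALT7 and B3GALT6 build the linker that joins glycosaminoglycan chains to proteoglycans, and both fell. B4GALT7 (ENSG00000027847; chromosome 5, 177600100 to 177610347, plus strand, 6 exons) was counted at 19.2, 19 and 18.2 CPM in siControl and 6.84, 7.08 and 5.84 CPM in siSON, so 35.1% was left (log2 fold change -1.51, SE 0.096, adjusted p 1.08e-07). The single-exon gene B3GALT6 had 42.9, 43.9 and 42.9 CPM in siControl and 32.2, 30.8 and 35.5 CPM in siSON (log2 fold change -0.40, SE 0.069, adjusted p 0.000337). In both genes every siSON library lay below every siControl library. B4GALT1, the main galactosyltransferase of N-glycans, was called lower at -0.24 (adjusted p 0.0297) although its groups overlapped. Leaving out siSON replicate 1 moved that value to -0.16 (adjusted p 0.116), and the call was also lost without siControl replicate 2 or 3 or siSON replicate 2 (adjusted p 0.082, 0.104 and 0.0685). B3GALT5, which makes type I chains, rose at low counts from between 1.18 and 1.72 CPM to between 2.03 and 2.22 CPM (0.58, SE 0.19, adjusted p 0.0177). That call did not hold without siControl replicate 2 or 3 (adjusted p 0.0565 and 0.0734) or with library size alone (0.38, adjusted p 0.0898). The remaining calls were B4GALT4 (0.30, and 0.11 with adjusted p 0.164 with library size alone), B4GALT3 (-0.23, and -0.19 with adjusted p 0.0614 without siSON replicate 2) and B3GALT2, which had 44, 41 and 38 counts in siControl and 5, 2 and 4 in siSON (-3.08).

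Sialyltransferases cap the chains. Of 14 genes 13 were tested, 3 rose and 6 fell (23.1% and 46.2%, beside 40.3% and 37.1% of tested protein-coding genes). With library size alone 2 rose and 6 fell, and under cyclic loess 6 rose and 5 fell. The median log2 fold change of 0.10 turned to -0.10 with library size alone. Among the ST3GAL genes 3 rose and 2 fell, and of 5 tested ST6GALNAC genes 3 fell and none rose. Under cyclic loess ST6GALNAC3 and ST6GALNAC5 were called higher (both 0.52, adjusted p 0.0398 and 0.0357) and ST6GALNAC6 was not called (-0.35, adjusted p 0.384). ST3GAL1, which sialylates mucin-type O-glycans (ENSG00000008513; chromosome 8, 133454848 to 133571940, minus strand), had 64.2, 63.2 and 58.3 CPM in siControl and 136, 126 and 129 CPM in siSON. Its rise had a size of 1.08 on the log2 scale (SE 0.059, adjusted p 3.77e-08) with no overlap, and its share of the summed sialyltransferase level per kilobase went from 20.8% to 42.6%. ST3GAL5, the synthase of ganglioside GM3, rose by 0.64 (SE 0.095, adjusted p 0.000105), and ST3GAL3 by 0.45 (SE 0.13, adjusted p 0.00794; 0.25, adjusted p 0.095, with library size alone). Of the ST3GAL3 transcript 48.3% of the 50-base words also occur in other genes.

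ST3GAL4 and ST3GAL6, which act on N-glycan antennae, fell by 0.69 and 0.79 on the log2 scale (adjusted p 3.17e-06 and 0.000247). ST6GAL2 had 11.4, 7.94 and 10.1 CPM in siControl and 3.03, 2.99 and 2.42 CPM in siSON, the lowest control library being above every siSON library (log2 fold change -1.80, SE 0.16, adjusted p 1.27e-06). Its paralog ST6GAL1, the usual enzyme of sialylated N-glycans, was not called (0.34, SE 0.14, adjusted p 0.0547), but was called higher under cyclic loess (0.65, adjusted p 0.00223), without the filter on low counts (0.34, adjusted p 0.0449) and without siSON replicate 3 (0.43, adjusted p 0.0306). ST6GALNAC2 had 42, 27 and 39 counts in siControl and 0, 0 and 2 counts in siSON. It was called lower (edgeR adjusted p 5.50e-05), but its fitted fold change rests on 2 counts and is not a measured ratio. ST6GALNAC4 fell from between 22.5 and 26.4 CPM to between 16.2 and 18.2 CPM (-0.54, adjusted p 0.000169), and ST6GALNAC6, at 8 to 32 counts, was called lower at -1.08 (adjusted p 0.0292), a call lost when any library other than siControl replicate 1 was left out (adjusted p 0.0506 to 0.0985). Of ST6GALNAC6 95.8% of the 50-base words are shared with the read-through gene AL157935.2, and of ST6GALNAC2 49.3% are shared with other genes.

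Fucosyltransferases were mostly silent. Of 11 FUT genes 4 were tested, none rose and 2 fell (50%). Of all tested protein-coding genes 40.3% were called higher and 37.1% lower. FUT8, which adds the core fucose of N-glycans (chromosome 14, 65410592 to 65744121, plus strand, 11 exons), was counted at 49.1, 52.6 and 53.8 CPM in siControl and 36.8, 36.2 and 40.2 CPM in siSON. FUT11 (chromosome 10, 73772291 to 73780251, plus strand, 3 exons) was counted at 57.3, 61 and 57.1 CPM in siControl and 40.7, 41.5 and 44.9 CPM in siSON. Both fell by 0.46 on the log2 scale with no overlap (adjusted p 9.42e-05 and 5.21e-05), while FUT10 (-0.11) and FUT4 (0.051) were not called. Under cyclic loess FUT4 was called higher (0.39, adjusted p 0.0237), and with library size alone FUT10 was called lower (-0.30, adjusted p 0.0282). FUT3, FUT5, FUT6 and FUT9, which make blood group and Lewis antigens or their neural relatives, had 0 counts in all 6 libraries.

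The GALNT family, which starts mucin-type O-glycans, showed the largest gain in summed level. Of 18 genes 14 were tested, 6 rose and 5 fell, with a median log2 fold change of 0.19 (-0.00 with library size alone). These shares, 42.9% and 35.7%, were near the 40.3% and 37.1% of all tested protein-coding genes. The genes that rose included the most abundant ones. GALNT2, GALNT10, GALNT7 and GALNT1 held 32.9%, 24%, 14.8% and 13.5% of the family's level per kilobase in siControl, and all of them rose. The summed level was 116, 124 and 125 CPM per kilobase in the siControl libraries and 215, 220 and 223 in the siSON libraries, 1.80 times as much.

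GALNT1 (ENSG00000141429; chromosome 18, 35581117 to 35711834, plus strand, 11 exons) was counted at 76.3, 87.3 and 88.7 CPM in siControl and 255, 286 and 291 CPM in siSON. It rose 3.3-fold (log2 fold change 1.72, SE 0.073, adjusted p 7.02e-09) and its share of the family level went from 13.5% to 24.7%. GALNT2 (ENSG00000143641; chromosome 1, 230057990 to 230282124, plus strand, 16 exons) was counted at 296, 318 and 317 CPM in siControl and 566, 575 and 584 CPM in siSON (log2 fold change 0.89, SE 0.048, adjusted p 3.18e-08; 0.51 under cyclic loess). GALNT7, which extends already glycosylated peptides, had 122, 123 and 126 CPM in siControl and 225, 210 and 197 CPM in siSON (0.77, SE 0.057, adjusted p 3.62e-07; 0.47 under cyclic loess). For all of them the lowest siSON library was well above the highest control. GALNT10 rose by 0.70 and GALNT14 by 0.52 (adjusted p 3.21e-07 and 0.00111), and GALNT3 rose at 15 to 96 counts (1.64, adjusted p 0.00193).

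The GALNT genes that fell were each less abundant per kilobase in siControl than GALNT1, GALNT2, GALNT7 and GALNT10. GALNT16 had 71.6, 84.3 and 85.5 CPM in siControl and 30.5, 43.1 and 43.8 CPM in siSON (log2 fold change -1.04, SE 0.13, adjusted p 6.29e-05), and held 6.11% of the family level per kilobase in siControl and 1.65% in siSON. GALNT11 fell from between 37.9 and 41.5 to between 26.7 and 30.4 CPM (-0.49, SE 0.074, adjusted p 0.000103). GALNT12 had 2.44, 1.78 and 1.94 CPM in siControl and 0.5, 0.62 and 0.511 CPM in siSON (-1.91, SE 0.23, adjusted p 1.52e-05). GALNT4 and GALNT6, at 0.393 to 1.47 CPM, fell by 1.22 and 1.08 on the log2 scale (adjusted p 0.00105 and 0.0057; GALNT6 was not called under cyclic loess, adjusted p 0.101). The coding exon of GALNT4 is shared with the read-through gene POC1B-GALNT4, which held at most 0.0402 CPM. GALNT5, GALNT13 and GALNT15 were not called, although GALNT13 was called lower with library size alone (-0.32, adjusted p 0.00781) and GALNT15 higher under cyclic loess (1.33, adjusted p 0.0241).

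**Figure D2:**
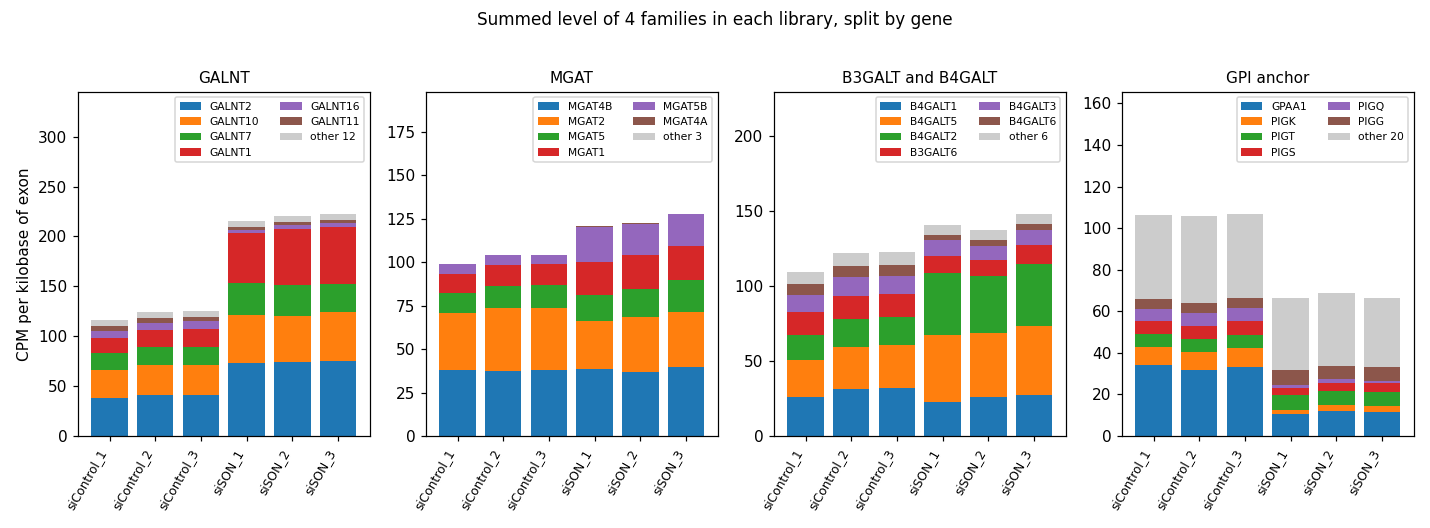
Summed level per library (CPM per kilobase of exon, vertical axis from 0) of the GALNT, MGAT, galactosyltransferase and GPI anchor families, with the 6 most abundant genes of each family in siControl in colour and the rest in grey. GALNT bars reach 215 to 223 in siSON against 116 to 125 in siControl, and GPI anchor bars reach 66.4 to 68.6 against 106 to 107.

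Per library, the other families changed less in sum. The ALG genes summed to 54 ± 0.197 CPM per kilobase in siControl and 82.9 ± 3.3 in siSON, the MGAT genes to 103 ± 3.11 and 124 ± 3.71, the galactosyltransferases to 118 ± 7.43 and 142 ± 5.37, the sialyltransferases to 33.6 ± 0.95 and 34.7 ± 0.435, and the fucosyltransferases to 21.9 ± 0.723 and 16.5 ± 0.724 (mean ± SD, n = 3 per group). The sialyltransferase sums overlapped, from 32.5 to 34.3 and from 34.3 to 35.1, although 9 of its genes were called. These sums depend on the summed exon length of each gene and were not tested.

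Promoters were read for sequence shared by genes that rose together. RefSeq promoter windows on GRCh38.p14, 250 bases before to 50 bases after the annotated start, were found for 82 of the 105 genes. The CCAAT box, searched as CCAAT on both strands, occurred in 14 of 23 windows of genes called higher (60.9%), in 5 of 28 of genes called lower (17.9%) and in 7 of 19 of genes not called (36.8%). Over all tested protein-coding genes it was 36% of windows of genes called higher, 36.9% of genes called lower and 34.6% of all 35116 windows in the table. The contrast among the enzymes was noticed after the values were known and was not tested. The GC box, searched as GGGCGG on both strands, occurred in 73.9% of the windows of genes called higher and 57.1% of those called lower, beside 69.4% of tested protein-coding genes and 45% of all windows. A match is a string in this window, before or after the start, not a measured binding site.

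The windows of the 3 GALNT genes with the largest rises at 1 CPM or more are printed with those of the deepest falls in the GPI pathway, 5′ to 3′ on the gene's strand, with each CCAAT or its reverse complement in capitals. GALNT1 lies at chr18:35580672-35580971, GALNT2 at chr1:230066988-230067287, GALNT7 at chr4:173168561-173168860, PGAP2 at chr11:3797648-3797947 and PIGQ at chr16:569718-570017, all on the plus strand. 
GALNT1: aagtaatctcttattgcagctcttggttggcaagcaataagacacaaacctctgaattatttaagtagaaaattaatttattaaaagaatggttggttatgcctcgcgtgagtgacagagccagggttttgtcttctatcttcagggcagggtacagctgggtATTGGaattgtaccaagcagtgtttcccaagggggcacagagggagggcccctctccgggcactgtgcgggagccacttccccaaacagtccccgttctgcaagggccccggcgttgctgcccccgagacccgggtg
GALNT2: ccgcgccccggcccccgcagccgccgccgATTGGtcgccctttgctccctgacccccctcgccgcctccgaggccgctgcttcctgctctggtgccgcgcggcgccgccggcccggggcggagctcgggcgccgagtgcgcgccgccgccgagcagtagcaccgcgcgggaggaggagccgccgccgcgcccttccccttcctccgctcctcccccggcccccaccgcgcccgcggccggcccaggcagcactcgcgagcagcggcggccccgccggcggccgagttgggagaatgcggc
GALNT7: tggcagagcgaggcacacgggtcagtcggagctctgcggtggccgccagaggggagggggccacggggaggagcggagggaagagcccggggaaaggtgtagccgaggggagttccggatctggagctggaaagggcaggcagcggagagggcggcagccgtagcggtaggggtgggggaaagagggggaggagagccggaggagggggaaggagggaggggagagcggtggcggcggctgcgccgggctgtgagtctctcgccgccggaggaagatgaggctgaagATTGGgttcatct
PGAP2: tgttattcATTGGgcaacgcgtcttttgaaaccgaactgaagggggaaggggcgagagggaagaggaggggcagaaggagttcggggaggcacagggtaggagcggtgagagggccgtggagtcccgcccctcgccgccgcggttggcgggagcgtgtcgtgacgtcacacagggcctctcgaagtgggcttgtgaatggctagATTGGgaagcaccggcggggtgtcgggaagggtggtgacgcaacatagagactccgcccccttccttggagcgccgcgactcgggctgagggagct
PIGQ: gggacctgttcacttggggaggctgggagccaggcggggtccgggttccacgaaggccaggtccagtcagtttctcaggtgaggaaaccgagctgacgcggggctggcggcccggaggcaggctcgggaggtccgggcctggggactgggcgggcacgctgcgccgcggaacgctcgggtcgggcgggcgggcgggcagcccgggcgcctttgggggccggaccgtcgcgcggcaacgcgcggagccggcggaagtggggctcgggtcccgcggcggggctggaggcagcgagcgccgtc
The GALNT windows each hold 1 CCAAT box, PGAP2 holds 2 and PIGQ holds 0, and GC content is 51.7%, 82%, 69.7%, 64.3% and 77% in the order printed.

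Most GPI anchor genes that changed fell. Of 26 genes 24 were tested, 4 rose (16.7%) and 13 fell (54.2%), with a median log2 fold change of -0.45. Of all genes tested 35.2% rose and 36.5% fell, and of protein-coding ones 40.3% and 37.1%. With library size alone 3 rose and 18 fell (median -0.65), since PIGA, PIGB, PIGF, PIGM and PIGP were then called lower (-0.22 to -0.38, adjusted p 0.0101 to 0.0386), and under cyclic loess 3 rose and 12 fell (median -0.19). Their summed level, which depends on the exon length used for each gene, fell from between 106 and 107 to between 66.4 and 68.6 CPM per kilobase. GPAA1 held 30.9% of it in siControl and 17% in siSON. Some genes were called lower at every stage of the pathway. The deepest fall was in remodelling, where PGAP1, PGAP2 and PGAP3, the genes placed in that step here, all fell. Of the further GPI genes listed below, TMEM246 (PGAP4) rose (log2 fold change 1.19), TMEM8A (PGAP6) fell (-1.14) and MPPE1 was not called (0.019).

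**Figure D3:**
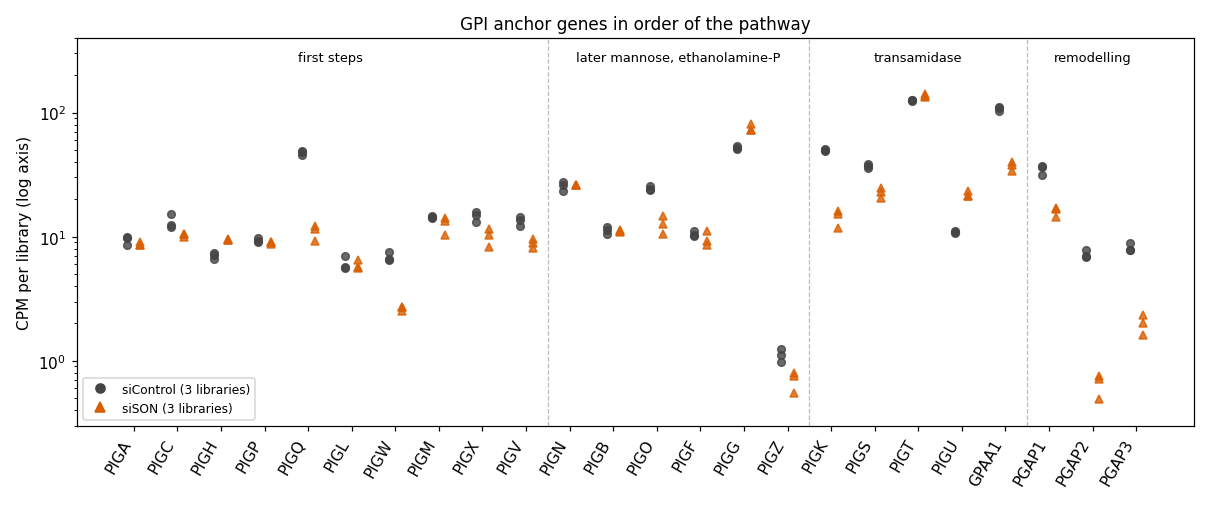
CPM of 24 GPI anchor genes in each of the 6 libraries (log axis), in the order in which their products act. PGAP2 drops from 6.88 to 7.87 CPM to 0.492 to 0.758 CPM, while PIGU goes from 10.7 to 11.2 CPM to 21.1 to 23.5 CPM and PIGA, PIGP, PIGN and PIGB stay within overlapping ranges.

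The anchor starts with a complex that puts N-acetylglucosamine on phosphatidylinositol. Of its subunits only PIGQ had a large change. PIGQ (ENSG00000007541; chromosome 16, 566995 to 584136, plus strand, 10 exons) was counted at 45.5, 48.6 and 48.5 CPM in siControl and 11.6, 12.2 and 9.17 CPM in siSON, so 23.1% was left (log2 fold change -2.11, SE 0.10, adjusted p 1.49e-08). Of the PIGQ 50-base words 32.3% are shared with Z98883.1, which overlaps it on the same strand. How reads of that part were assigned is not known. The catalytic subunit PIGA was not called (9.82, 8.57 and 9.93 against 8.62, 8.63 and 9.09 CPM; log2 fold change -0.11, adjusted p 0.351), nor was PIGP (-0.059). PIGH, another subunit, rose from between 6.62 and 7.33 to between 9.33 and 9.6 CPM (0.43, SE 0.095, adjusted p 0.00161), and PIGC fell by 0.36 (adjusted p 0.0113), a call lost without siControl replicate 3 (-0.25, adjusted p 0.0562) and under cyclic loess (-0.17, adjusted p 0.176). PIGY is listed at 0 in every library, and its span lies in PYURF on the same strand, which fell from between 45.8 and 49.2 to between 34.3 and 35.3 CPM (-0.45, adjusted p 4.96e-05).

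The next enzymes deacetylate, acylate and mannosylate the lipid. PIGW, which acylates the inositol, had 6.61, 7.57 and 6.53 CPM in siControl and 2.71, 2.73 and 2.5 CPM in siSON (log2 fold change -1.38, SE 0.12, adjusted p 1.70e-06). The mannosyltransferase PIGV and PIGX, the partner of the mannosyltransferase PIGM, fell by 0.61 and 0.55 (adjusted p 0.000215 and 0.00224), while PIGL and PIGM were not called (-0.042 and -0.19; PIGM -0.26 with adjusted p 0.0429 without siSON replicate 1). Of the 6 genes of later mannose and ethanolamine phosphate steps, PIGO fell (-0.95, adjusted p 1.62e-05), PIGG rose (0.53, SE 0.062, adjusted p 1.34e-05), and PIGN, PIGB and PIGF were not called. PIGZ, at 0.551 to 1.24 CPM, was called lower at -0.66 (adjusted p 0.0306), which was lost when siControl replicate 2 or 3 or siSON replicate 2 or 3 was left out (adjusted p 0.0506 to 0.112).

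The transamidase that joins the anchor to the protein has 5 subunits here, and all were called, 2 higher and 3 lower. Of all tested protein-coding genes 77.4% were called, and the call of PIGT was not stable. GPAA1 (ENSG00000197858; chromosome 8, 144082590 to 144086216, plus strand, 12 exons), the most abundant of the GPI genes per kilobase in siControl, had 111, 103 and 108 CPM in siControl and 33.9, 39.8 and 38 CPM in siSON (log2 fold change -1.53, SE 0.069, adjusted p 1.07e-08). PIGK, the catalytic subunit (ENSG00000142892; chromosome 1, 77088990 to 77219430, minus strand, 11 exons), was counted at 49.9, 48.9 and 51.3 CPM in siControl and 11.7, 16 and 15.2 CPM in siSON (-1.81, SE 0.11, adjusted p 5.76e-08). GPAA1 was left at 34.7% and PIGK at 28.6% of control, with no overlap between groups. PIGS fell less (-0.71, SE 0.081, adjusted p 1.17e-05). PIGU (ENSG00000101464; chromosome 20, 34560542 to 34698790, minus strand, 11 exons) was counted at 11.2, 11 and 10.7 CPM in siControl and 23.5, 21.2 and 21.1 CPM in siSON, a 2.01-fold rise (1.00, SE 0.081, adjusted p 7.05e-07). PIGT was called higher by only 0.12 (adjusted p 0.0455). The call was lost in DESeq2 (adjusted p 0.0671), with RLE size factors (adjusted p 0.0567) and with library size alone (-0.08, adjusted p 0.187). It was also lost under both other filters on counts (adjusted p 0.101 and 0.232). The fits that left out 1 library lost it too, except that without siSON replicate 2. Under cyclic loess PIGT was called lower (-0.15, adjusted p 0.0161).

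After transfer, PGAP proteins remodel the anchor. PGAP2, needed to put a saturated fatty acid on the anchor (ENSG00000148985; chromosome 11, 3797724 to 3826371, plus strand, 7 exons; overlapping NUP98 on the other strand), had 7.87, 6.95 and 6.88 CPM in siControl and 0.758, 0.717 and 0.492 CPM in siSON. Only 9.14% was left (log2 fold change -3.45, SE 0.17, adjusted p 2.10e-08), the deepest fall of any of these genes with a mean of at least 1 CPM. PGAP3, the phospholipase of the same step (chromosome 17, 39671122 to 39696797, minus strand; overlapping ERBB2 on the other strand), had 7.85, 8.89 and 7.79 CPM in siControl and 2.02, 2.33 and 1.61 CPM in siSON (-2.04, SE 0.15, adjusted p 3.11e-07). PGAP1, which removes the inositol acyl chain, fell from between 31.2 and 37.2 to between 14.3 and 16.9 CPM (-1.14, SE 0.095, adjusted p 8.95e-07). Every siSON library was below every siControl library in these genes.

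Of 11 further GPI genes, 1 rose (9.09%) and 7 fell (63.6%), with a median of -0.45. Beside them, 40.3% of all tested protein-coding genes were called higher and 37.1% lower. Among the 11 are DPM1, DPM2 and DPM3, which also stand in the dolichol list. TMEM246, the Golgi enzyme also called PGAP4, rose from 26.1 ± 2.8 to 59.6 ± 1.2 CPM (mean ± SD, n = 3 per group; log2 change 1.19, adjusted p 1.58e-07), and TMEM8A, also called PGAP6, fell by 1.14 (adjusted p 1.49e-08). Of 32 tested genes for GPI-anchored proteins, 17 rose (53.1%) and 12 fell (37.5%), with a median of 0.23. NT5E, an ectonucleotidase, rose from 809 ± 12.3 to 1483 ± 22.6 CPM (0.87, adjusted p 1.74e-08; 0.43 under cyclic loess) and CD55, a complement inhibitor, rose by 1.07 (adjusted p 2.82e-08). Only mRNA was measured, and the amount of anchored protein at the surface was not.

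Sugar donors and their carriers moved in both directions. Of 24 genes of nucleotide sugar synthesis 9 rose (37.5%) and 10 fell (41.7%), with a median of -0.11. The shares over all tested protein-coding genes were 40.3% and 37.1%. PMM2, the phosphomannomutase that supplies mannose for both pathways, rose from 18.2 ± 0.395 to 80.3 ± 4.01 CPM (mean ± SD, n = 3 per group; log2 change 2.14, adjusted p 1.27e-09), and GFPT1, the first enzyme of the hexosamine pathway, rose by 1.39 (adjusted p 2.82e-09). Of 13 nucleotide sugar transporters 8 rose (61.5%) and 3 fell (23.1%), with a median of 0.49. SLC35A2, the UDP-galactose transporter, rose by 0.76 (adjusted p 3.94e-07), and SLC35C2 fell from 31 ± 1.18 to 2.02 ± 0.193 CPM (-3.94, adjusted p 6.06e-10). Of 19 tested genes of other O-glycans and chain extension 9 rose (47.4%) and 6 fell (31.6%), with a median of 0.53. POFUT2, an O-fucosyltransferase, was at 1.93 (adjusted p 1.07e-09) and POMGNT1, of O-mannose glycans, at -2.36 (adjusted p 5.09e-09).

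Gene models were set beside the fold changes. Splicing itself cannot be read from counts per gene. Of the genes with introns, those called lower had a median of the median intron length of 1566 bases and 7 introns, and those called higher 3110 bases and 10 introns. Those not called, at 3016 bases and 9 introns, were close to those called higher. Over tested protein-coding genes the medians were 1287 bases for those called lower, 2174 for those called higher and 2196 for those not called. The Spearman correlation of median intron length with log2 fold change was 0.28 across 78 genes, and 0.25 across 12699 tested protein-coding genes. These are correlations across genes that share the same 6 libraries and are given as a description. Transcript GC content had a correlation of -0.01 across the 85 genes, beside -0.21 across 13003 protein-coding genes. Short introns did not always go with a fall. GPAA1 (median 112 bases) fell and MGAT4B (median 115 bases) was not called, while ALG3 (318 bases) rose and PIGK (5188 bases) fell.

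**Figure D4:**
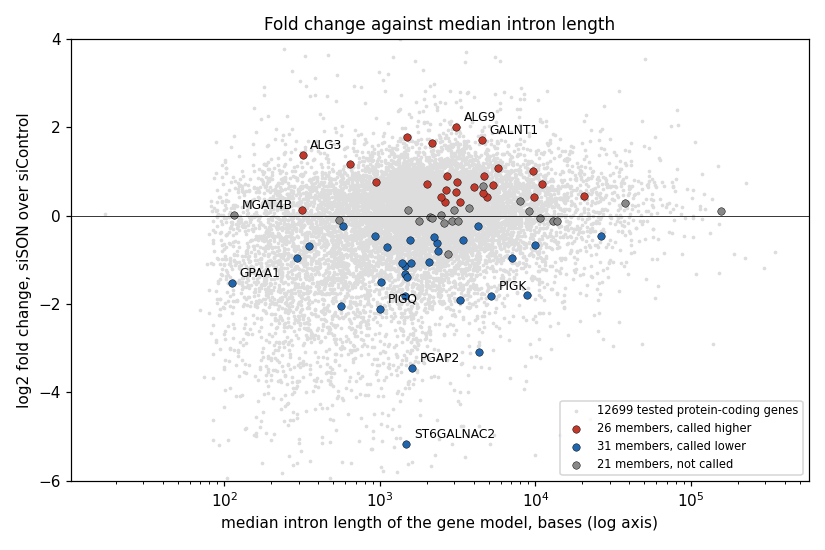
Log2 fold change against the median intron length of the chosen gene model (log axis) for 78 of these genes in colour and 12699 tested protein-coding genes in grey, of which 58 lie outside the plotted range. Falls and rises both occur at short and at long introns. Among these genes the median was 1566 bases for those called lower, 3110 for those called higher and 3016 for those not called.

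Genes with a single exon in every annotated transcript have no intron to remove. Of 7 such genes 6 were tested. MGAT2 (-0.21), B3GALT6 (-0.40) and GALNT4 (-1.22) fell, and PIGM (-0.19), B3GALT1 (0.063) and FUT4 (0.051) were not called. Among all 229 tested protein-coding genes of this kind 66.8% were called, 25.8% higher and 41% lower.

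The 20 genes that were not tested were at or near the counting floor. MGAT4D, GALNT8, GALNT17, GALNT18, ST6GALNAC1, FUT3, FUT5, FUT6 and FUT9 had 0 counts in all 6 libraries, which allows up to 0.0402 to 0.059 CPM in each. PIGY was also listed at 0, but since it lies within PYURF that 0 gives no limit on its level. ALG1L, ALG1L2, PIGR, B3GALT4, GALNT9, FUT1 and FUT2 had at most 8 counts in any library. MGAT3, which adds the bisecting sugar, had 7, 5 and 10 counts in siControl and 0 in each siSON library. FUT7, a leukocyte fucosyltransferase, had 0 in each siControl library and 10, 8 and 2 counts in siSON, and MGAT4C had 0 in siControl and 2, 4 and 1 in siSON.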

How the data were processed

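Messenger RNA was measured in 6 libraries. The table that the authors deposited holds raw counts of reads for each gene, and its columns were matched to libraries by title. The submitters' processing notes name cutadapt 1.16, STAR 2.5.2a, featureCounts 1.6.2, DESeq2 1.28.1 and hg38, without roles. Which annotation was counted, whether strand was used and what was done with reads of several loci is not given in the sources used here, so counts of overlapping genes and near copies are uncertain. All 58735 identifiers matched GENCODE release 29 (GRCh38), which gave positions, exons, introns and the summed exon length used for CPM per kilobase. The gene model is the basic transcript with the longest coding sequence.

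In R 4.3.3 with edgeR 4.0.16, genes passing filterByExpr (minimum count 10) were scaled by TMM and tested with a robust quasi-likelihood fit on group alone. P-values were adjusted by Benjamini-Hochberg over all genes tested. The standard error is the absolute log2 fold change over the square root of F. CPM uses TMM-scaled library sizes. Alternatives were DESeq2 1.42.0, limma 3.58.1 (voom, and cyclic loess), other scalings and filters, the replicate block, and leaving out each library. Library totals were 54572365 to 69764836 counts. The fits were tested on simulated data. Shared sequence is the share of a transcript's 50-base words that occur in transcripts of other genes.

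The symbol rule that picked the members uses no measured value, but the rule and the lists were chosen with earlier results of these data known. Genes named are SON, up to 3 rises and 3 falls per family among called, non-overlapping genes whose average log2 CPM reached 0, the ALG10, MGAT4 and MGAT5 paralogs, and the 2 smallest p-values per list. Other genes named, and the promoters, were chosen after their values were seen.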

Additional observations from a re-analysis of the deposited data

How the results depend on the processing

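The number of these genes called (61) ranged from 56 to 65 over all alternatives, and 49 of the 61 were called in the same direction in every alternative that tested them (57 of the 61 were tested in all). The number called per family and per list stayed within 1.5 times of the reported one. Split by direction, sialyltransferases called higher went from 3 to 6 under cyclic loess, galactosyltransferases called higher from 4 to 2 with library size alone, MGAT genes called lower from 1 to 2 under cyclic loess, with library size alone and without the filter on low counts, and fucosyltransferases called higher from 0 to 1 under cyclic loess and without that filter. The log2 fold change of MGAT4B (0.022) turned to -0.18 with library size alone, -0.30 under cyclic loess and -0.035 with a mean count of at least 50, and ranged from -0.006 to 0.060 when 1 library was left out. That of MGAT4A (-0.13) turned to 0.25 under cyclic loess and ranged from -0.25 to 0.004 when 1 library was left out. The cause of these turns was not tested. Cyclic loess shrank several called rises by over 1.5 times without ending the call, RPN1 from 0.77 to 0.41, NT5E from 0.87 to 0.43, GALNT2 from 0.89 to 0.51, GALNT7 from 0.77 to 0.47, MGAT1 and B4GALT5 from 0.72 to 0.42 and DAD1 from 0.76 to 0.50, and the fall of ST3GAL6 from -0.79 to -0.49; it enlarged PIGH (0.43 to 0.68), ST3GAL3 (0.45 to 0.79), B3GALT5 (0.58 to 0.96) and MGAT2 (-0.21 to -0.43). Library size alone moved PIGG from 0.53 to 0.33, PIGH to 0.24, MGAT5 from 0.42 to 0.22 and MGAT2 to -0.41. PIGT was the one gene called in opposite directions, 0.12 as reported and -0.15 under cyclic loess. ST6GALNAC2 moved from -5.16 to -8.04 without siSON replicate 3, the only siSON library with counts for it.

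The deviations of same-numbered libraries of the groups had correlations of 0.194, 0.0461 and 0.118, and each library correlated best with its own number. Other pairs ran from -0.138 to 0.0286. The reported test left the numbers out, and whether same-numbered libraries were handled together is not known. With the replicate block 63 of these genes were called, 28 higher and 35 lower, and the 61 were among them; ALG14 (0.28, adjusted p 0.0368) and ST3GAL2 (0.13, adjusted p 0.0392) were added. Over all genes 12313 were called with the block, against 11888. Genes under about 50 counts, such as ST6GALNAC6 and GALNT15, are limited by depth.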
